A study of Caenorhabditis elegans with 6 samples.

Results

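The transcripts of the cytosolic small subunit ribosomal proteins were followed in Caenorhabditis elegans whose nol-56 gene was knocked down. The members were the genes with counts whose name is rps followed by a number, together with ubl-1, and 32 of the 22416 genes with counts met this rule. The deposited gene descriptions name 31 of the 32 as small subunit ribosomal proteins, and the exception, rps-10, carries a description by its plectin domain. All 32 are protein coding in the Ensembl 115 annotation of WBcel235 and all 32 passed the filter on low counts.

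Both groups were of the strain CL2006, which makes human amyloid-β in body wall muscle from the promoter of a myosin gene (unc-54p::Abeta), so controls and treated worms alike carried this transgene. Worms were kept at 20 °C on bacteria with the empty RNAi vector (EV) until the last larval stage. They then either stayed on these bacteria (EV control, 3 pools) or were moved to bacteria that silence nol-56 by feeding RNAi (nol-56 RNAi, 3 pools), with adults moved daily away from their progeny. The pools were harvested at adult day 6 and their polyA-selected RNA was sequenced. A whole-worm pool holds germline, muscle, gut, skin and neurons together, and in such bulk samples fewer cells of a type and less RNA per cell cannot be told apart.

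The small ribosomal subunit binds messenger RNA and reads its codons, and the large subunit joins amino acids. Each small subunit holds a single ribosomal RNA folded into a head, a body and a platform, with the ribosomal proteins bound over its surface. The subunit is put together in the nucleolus, where NOL-56 sits in particles built on box C/D RNAs, which methylate ribosomal RNA and take part in its processing. Most ribosomal proteins are needed in equal numbers in each ribosome, and in worms they are strongly expressed in the growing germline.

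The targeted gene followed the labels in every library. Levels are given as CPM, counts relative to the TMM-scaled library total. The CPM of nol-56 was 263 ± 8.66 in the EV control and 18.2 ± 2.59 on nol-56 RNAi, a 14.4-fold fall (mean and SD of 3 libraries in each group, as throughout). Library totals were 21138955 to 34841215 counts, and each small subunit gene had between 4207 and 56429 counts in a library, so that counting error was small. The labels give no batch, and nothing in them says whether the pools were grown apart. The p-values therefore measure only how these samples vary, which may be technical. Within each group a library stood apart for these genes. EV control library 1 had the lowest CPM of its group in 32 of 32 genes, and nol-56 RNAi library 3 in 29 of 32. Where leaving out a single library changed the call or sign of a gene named below, or moved its value by over 1.5 times, the value without it is given beside that gene.

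Transcripts of the small subunit proteins were lower on nol-56 RNAi nearly throughout. Of the 32 genes, 30 fell and none rose at an adjusted p under 0.05 (edgeR quasi-likelihood test over 14677 genes with Benjamini-Hochberg adjustment, two-sided), where 40.8% of all genes tested were called lower and 47.2% higher. The median log2 fold change was −0.47, with a range of −0.88 to 0.02, against a median of 0.16 for all genes tested. A fall of at least 1.5-fold was called in 10 of the 32, where 25.8% of all genes tested had such a fall. That count lies near the background and moved with the scaling, to 2 with upper-quartile factors, 6 with library totals, 18 with RLE factors and 19 with DESeq2. The nol-56 RNAi libraries were all below the EV control libraries in 28 of the 32 genes, where the same held for 40.9% of all genes tested. With upper-quartile factors, which move the median of all genes by 0.25 on the log2 scale, 24 of the 32 fell and 2 rose. Of all 14677 genes tested, 4825 fell and 8002 rose in that setting. With RLE factors, which move the median by −0.14, 32 fell, where 6467 of all genes tested fell and 6362 rose. Relative to the median of all genes, the median of the 32 stood at −0.63 with TMM, RLE and upper-quartile factors. A change of factors shifts all genes by nearly the same amount, so this agreement was fixed in advance and does not check the scaling. Where only the 9931 genes above 5 CPM in at least 3 libraries were tested, the median of the 32 stood at −0.31 relative to that of these genes.

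**Figure D1:**
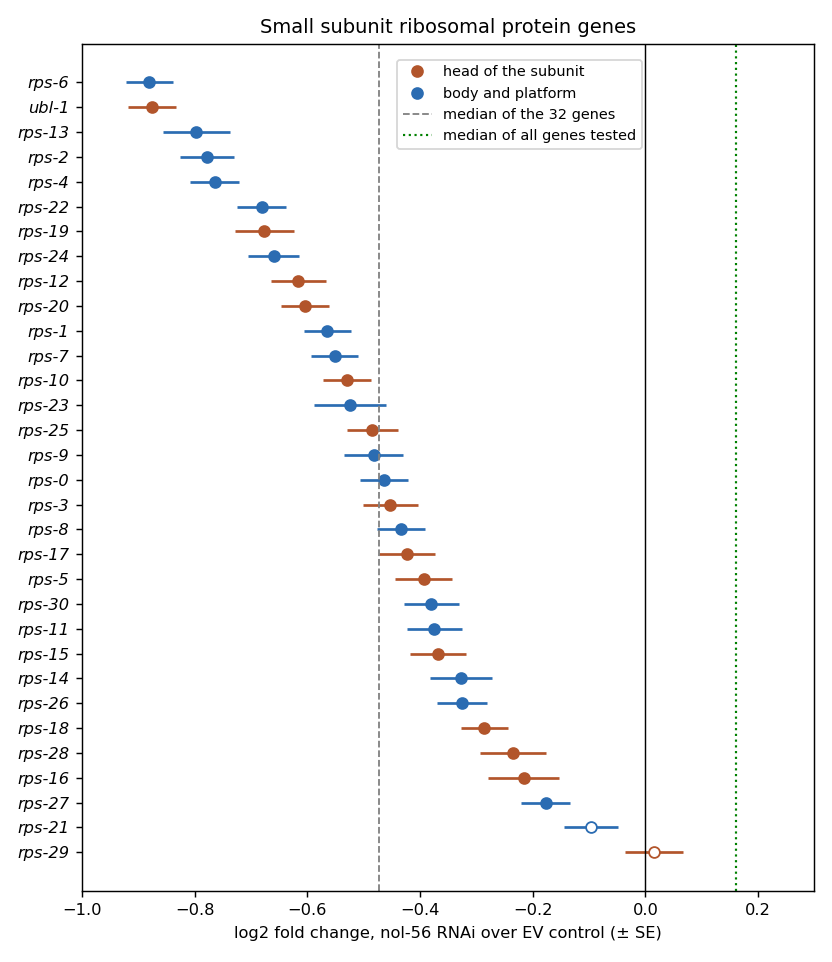
Log2 fold change (nol-56 RNAi over EV control, x axis) of the 32 small subunit genes, ordered from the lowest to the highest, with the standard error as a bar. Filled points passed the threshold and open points (rps-21 and rps-29) did not. The dashed line marks the median of the 32 genes (−0.47) and the dotted line that of all genes tested (0.16).

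Summed over the 32 genes, the small subunit took 2.42%, 2.59% and 2.64% of all counts in the controls, libraries 1 to 3 in order, and 1.99%, 1.94% and 1.81% in the treated libraries. Every nol-56 RNAi library was below every EV control library. The mean share went from 2.55 ± 0.112% to 1.91 ± 0.0960%, a ratio of 0.751. This share also depends on a few very abundant transcripts, of which the yolk protein genes vit-6, vit-5 and vit-2 are the top 3. Without the 20 genes that held the most counts, the share went from 2.85 ± 0.130% to 2.36 ± 0.0961%, a ratio of 0.830.

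**Figure D2:**
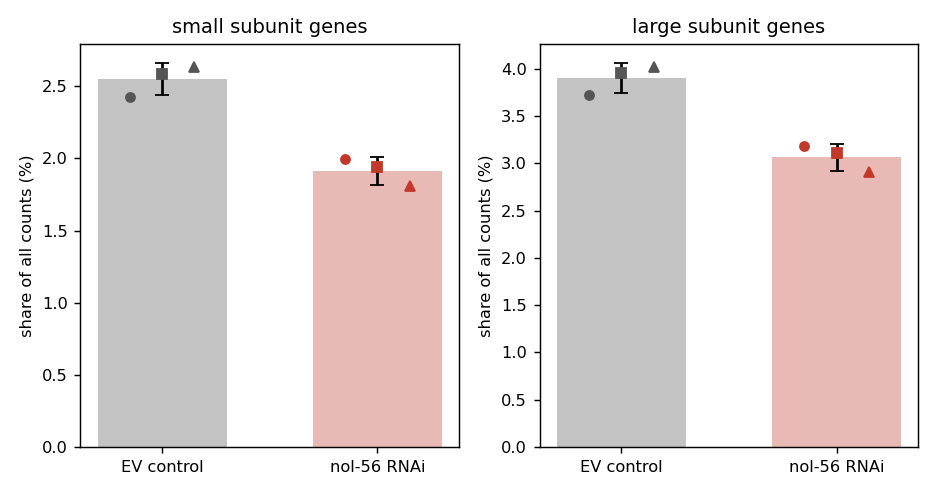
Share of all counts in percent held by the 32 small subunit genes (left) and the 51 large subunit genes (right) in each library. Bars are group means with the SD of 3 libraries, and symbols mark libraries 1 (circle), 2 (square) and 3 (triangle). Every nol-56 RNAi library is below every EV control library in both panels.

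The lowest fold changes belonged to genes of the body and of the head alike. rps-6 (chromosome I, 13952161 to 13953203, plus strand of WBcel235) encodes the protein that S6 kinase phosphorylates downstream of the growth regulator TOR. Its level, with libraries 1 to 3 in order here and below, was 1026, 1053 and 1053 CPM in the EV control and 568, 581 and 551 CPM on nol-56 RNAi. The groups lie far apart next to the spread within each, and rps-6 fell 1.84-fold (log2 fold change −0.88, SE 0.04, adjusted p = 8.21e-15, edgeR). ubl-1 (chromosome III, 3068310 to 3069210, plus strand) encodes a ubiquitin-like protein fused to ribosomal protein S27a. It was at 636, 664 and 680.3 CPM in the EV control and at 351, 372 and 356 CPM on nol-56 RNAi. The 3 treated libraries are close together and below all controls, and ubl-1 fell 1.84-fold as well (−0.88, SE 0.04, adjusted p = 1.49e-14, edgeR).

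rps-2 and rps-4, of the subunit body, and rps-13, whose protein lies near the platform, completed the 5 lowest. rps-2 (chromosome IV, 7925298 to 7926391, minus strand) encodes a protein that lines the channel through which messenger RNA enters. It was at 1188, 1272 and 1238 CPM in the EV control and at 766, 719 and 672 CPM on nol-56 RNAi (log2 fold change −0.78, SE 0.05). rps-4 (chromosome IV, 7083696 to 7084682, minus strand) was at 1392, 1491 and 1461 CPM and at 862, 854 and 841 CPM (−0.77, SE 0.04). The treated libraries of rps-4 differ by less than those of rps-2, and neither gene has groups that overlap. rps-13 (chromosome III, 6374097 to 6374997, minus strand) was at 435, 491 and 482 CPM and at 295, 276 and 238 CPM (−0.80, SE 0.06). Its treated libraries are spread more widely than those of rps-4, with library 3 the lowest, and its groups do not overlap either. rps-4 shares 21 exonic bases with Y43B11AR.3 on the same strand, so a few reads there could belong to either gene.

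At the other end of the order stood genes for some of the smallest proteins of the subunit. rps-29 (chromosome III, 794300 to 795031, plus strand) encodes the smallest of the set, a zinc-binding protein of the head with 56 residues. It was at 280.4, 294 and 308 CPM in the EV control and at 319.6, 301 and 270.3 CPM on nol-56 RNAi. The treated libraries lie on both sides of the controls, and the log2 fold change was 0.02 (SE 0.05, adjusted p = 0.780, edgeR). For rps-29 the sign turned with the scaling, from −0.12 with RLE factors (adjusted p = 0.0338, edgeR) to 0.26 with upper-quartile factors (adjusted p = 0.000152, edgeR). Leaving out each library in turn gave −0.04 to 0.08, the highest without nol-56 RNAi library 3 (adjusted p = 0.126, edgeR). Its value was negative and not past the threshold without EV control library 1 (−0.02, adjusted p = 0.640, edgeR) or nol-56 RNAi library 1 (−0.04, adjusted p = 0.525, edgeR).

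rps-21 (chromosome III, 7189178 to 7189631, minus strand) encodes a protein of the body that binds beside that of rps-0. It was at 355, 377 and 378 CPM in the EV control and at 363, 357 and 318 CPM on nol-56 RNAi, with groups that overlap. Its log2 fold change was −0.10 (SE 0.05, adjusted p = 0.0649, edgeR). The gene was called lower without EV control library 1 (−0.13, adjusted p = 0.00895, edgeR), without nol-56 RNAi library 1 (−0.13, adjusted p = 0.0307, edgeR) and with RLE factors (−0.23), and higher with upper-quartile factors (0.15). Without nol-56 RNAi library 3 its value was −0.04 (adjusted p = 0.404, edgeR).

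rps-27, rps-16 and rps-28 fell by small amounts. rps-27 (chromosome V, 103394 to 104077, minus strand), for another zinc-binding protein, was at 403, 430.2 and 428 CPM in the EV control and at 373, 387 and 357 CPM on nol-56 RNAi (log2 fold change −0.18, SE 0.04). Its groups lie close together without overlap. rps-28 (chromosome IV, 1659691 to 1659997, plus strand), for a protein of the head near the exit of messenger RNA, was at 238, 272 and 256 CPM and at 239, 217 and 194 CPM (−0.23, SE 0.06). Its highest treated library is level with its lowest control. rps-16 (chromosome V, 15000018 to 15000541, minus strand) encodes a protein of the head whose tail reaches the transfer RNA in the ribosome. It was at 418, 451 and 471 CPM and at 424, 399 and 331 CPM (−0.22, SE 0.06, adjusted p = 0.00331, edgeR). Treated library 1 of rps-16 is above control library 1, so these groups overlap. With upper-quartile factors the 3 genes were no longer called and their signs turned, to 0.07 for rps-27, 0.01 for rps-28 and 0.03 for rps-16. The calls of all 3 were also lost where only genes above 5 CPM were tested (adjusted p = 0.510, 0.195 and 0.355 for rps-27, rps-28 and rps-16, edgeR). With library totals those of rps-27 (adjusted p = 0.0796, edgeR) and rps-16 (adjusted p = 0.0998, edgeR) were lost. Without nol-56 RNAi library 3, its lowest, rps-16 stood at −0.12 (adjusted p = 0.0363, edgeR). rps-16 shares 12 exonic bases with T01C3.11 on the opposite strand.

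**Figure D3:**
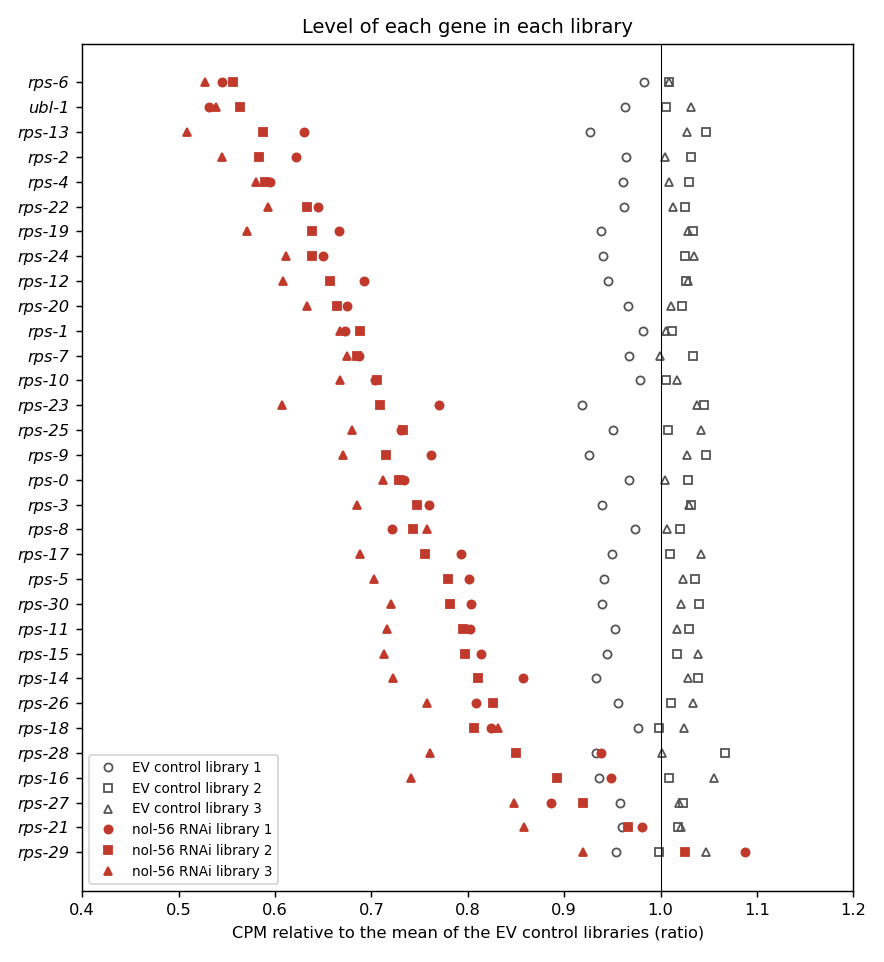
CPM of each small subunit gene in each library as a ratio to the mean of the 3 EV control libraries, with genes in order of their fold change. Open grey symbols are EV control and filled red symbols nol-56 RNAi libraries, numbered by symbol shape. The groups separate from rps-6 down to rps-18 and overlap in rps-28, rps-16, rps-21 and rps-29, and EV control library 1 and nol-56 RNAi library 3 tend to lie to the left within their groups.

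The remaining 22 genes fell by values between those of rps-22 (log2 fold change −0.68) and rps-18 (−0.29), and no gene among them has overlapping groups. Proteins known to touch the messenger RNA path are those of rps-3, rps-23 and rps-26. rps-3 at the entry went from 1303 ± 69.0 to 952 ± 52.7 CPM (−0.45), rps-23 at the decoding site from 770.2 ± 54.7 to 536 ± 63.4 CPM (−0.52), and rps-26 at the exit from 556 ± 22.5 to 444 ± 19.8 CPM (−0.33). rps-14, a platform protein next to the decoding site, went from 746 ± 43.6 to 595 ± 51.0 CPM (−0.33). The genes for head proteins that face the large subunit, rps-15 (−0.37) and rps-18 (−0.29), were among the smaller falls. rps-18 shares 50 exonic bases with hhat-2 on the opposite strand. With upper-quartile factors rps-14 (−0.08), rps-18 (−0.04) and rps-26 (−0.08) no longer passed the threshold.

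Many small subunit proteins are mutated in human Diamond-Blackfan anaemia, a failure of red cell production. Of their worm counterparts, rps-19 went from 609.9 ± 32.9 to 381 ± 30.2 CPM (−0.68), rps-24 from 812 ± 42.2 to 514 ± 15.7 CPM (−0.66), rps-7 from 1005 ± 33.8 to 685 ± 6.86 CPM (−0.55) and rps-10 from 869 ± 17.2 to 602 ± 18.6 CPM (−0.53). rps-17 was at 526, 559 and 577 CPM in the EV control and at 439, 418 and 381 CPM on nol-56 RNAi (−0.42). rps-26, rps-27, rps-28 and rps-29, described above, are counterparts of such genes too, and of these rps-29 did not pass the threshold. The fall of rps-17 is close to the median of the 32 genes, and that of rps-19 is beyond it. Other members near the median were rps-25 (−0.48), rps-9 (−0.48), rps-0 (−0.46) and rps-8 (−0.43), with rps-5 (−0.39), rps-30 (−0.38) and rps-11 (−0.37) above it and rps-12 (−0.62), rps-20 (−0.61), rps-1 (−0.56) and rps-7 below it.

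Place in the subunit did not separate the genes. Of 14 genes for proteins of the head, 13 fell (median −0.44, range −0.88 to 0.02), where 40.8% of all genes tested were called lower. Of 18 for the body and platform, 17 fell (median −0.50, range −0.88 to −0.10). The ranges cover nearly the same values, and a difference between these lists was not tested.

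Per kilobase of annotated exon, the 32 genes stood within a 2.75-fold range in the EV control, with a median of 1373 CPM per kilobase. The highest were rps-8 with 2037 ± 49.1, rps-25 with 1924 ± 88.7 and rps-0 with 1868 ± 57.3 CPM per kilobase (EV control, mean ± SD, n = 3). rps-8 was at 1415, 1483 and 1464 CPM in the EV control and at 1048, 1080.2 and 1101 CPM on nol-56 RNAi, and it is 1 of the genes in which treated library 3 was not the lowest. rps-25, whose protein viral messenger RNAs use to recruit ribosomes, was at 732, 775 and 802 CPM and at 562, 564 and 524 CPM. rps-0, the counterpart of the laminin receptor precursor, was at 1589, 1689 and 1649 CPM and at 1204, 1196 and 1170.0 CPM. In none of the 3 do the groups overlap.

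The lowest levels per kilobase were those of rps-22 with 739 ± 24.6, rps-13 with 925 ± 59.7 and rps-16 with 931 ± 55.7 CPM per kilobase in the EV control. rps-22 was at 502, 535 and 529 CPM in the EV control and at 336, 331 and 309 CPM on nol-56 RNAi, without overlap (−0.68). rps-22 has 706 annotated exonic bases for a coding sequence of 390, spread over 5 transcripts, so its level per kilobase may rest on which exons are used. On nol-56 RNAi the range over the 32 genes was 3.27-fold, with a median of 1011 CPM per kilobase.

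The make-up of the small subunit transcripts differed between the groups. As a share of the summed counts of the 32 genes, 10 genes were lower in every nol-56 RNAi library than in every EV control library, 14 were higher and 8 overlapped. Such shares were not computed for other genes. In CPM, 40.9% of all genes tested were lower in every nol-56 RNAi library, so groups that do not overlap are common in these data. rps-6 went from 3.97 ± 0.0954% to 3.06 ± 0.0806% of small subunit counts and ubl-1 was at 1.94 ± 0.0970% on nol-56 RNAi, against a mean of 2.51% in the EV control. rps-29 went from 1.12 ± 0.0291% to 1.60 ± 0.0687% and rps-21 from 1.40 ± 0.00782% to 1.86 ± 0.0567%. These shares do not depend on the scaling of the libraries, and since they add up to the whole, a lower share of some genes raises that of others.

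Across the 32 genes the fold change was lower in longer transcripts, and also in more abundant ones. Exon lengths ranged from 252 to 998 bases with a median of 507. The 17 genes up to the median length had a median log2 fold change of −0.38 and the 15 longer genes one of −0.55. Pearson's r between log2 fold change and log2 exon length was −0.63 and Spearman's rho −0.57 over 32 genes, which share the same 6 libraries and are not independent replicates. Without nol-56 RNAi library 3 the values were −0.66 and −0.60. Among 50 large subunit genes r was −0.09 and rho −0.19, and among 14148 protein-coding genes tested r was −0.13 and rho −0.15. The level in nol-56 RNAi library 3 relative to libraries 1 and 2 also moved with length. Its median log2 ratio was −0.17 in the shorter and −0.06 in the longer small subunit genes, and its r with log2 exon length was 0.48 in the small and 0.43 in the large subunit. Between log2 fold change and log2 EV control CPM, r was −0.48 in the 32 genes and −0.42 over the 14148 protein-coding genes. The part of library preparation or RNA quality in these relations was not tested.

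**Figure D4:**
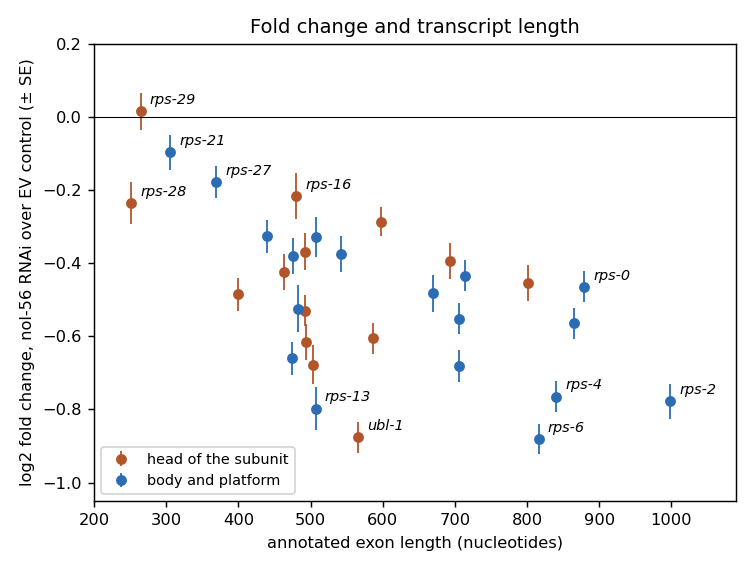
Log2 fold change (nol-56 RNAi over EV control, y axis, with its standard error) against annotated exon length in nucleotides (x axis) for the 32 small subunit genes, coloured by place in the subunit. The 4 shortest genes, rps-28, rps-29, rps-21 and rps-27, lie at −0.23 or above, and the genes over 800 nucleotides at −0.45 or below.

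The genes shared features of layout. They lie on chromosomes I (8 genes), II (1 gene), III (10 genes), IV (10 genes) and V (3 genes), and none lies on the X chromosome, which holds 15.1% of the protein-coding genes tested. They have 2 to 5 exons in the transcript with the longest coding sequence, and 20 of the 32 have 3. The annotated 5′ untranslated region has a median of 12 bases, against 16 for all protein-coding genes tested. Median log2 fold changes by chromosome were −0.54 on I, −0.51 on III, −0.46 on IV and −0.22 on V, and the only gene on II stood at −0.48.

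Introns of 6 small subunit genes hold a total of 9 annotated small nucleolar RNA genes on the same strand. NOL-56 belongs to particles built on box C/D RNAs. The annotation used here does not say which of the 9 are of that kind, and they were not sorted. The hosts are ubl-1, rps-4, rps-12, rps-13, rps-23 and rps-29. Their log2 fold changes ran from −0.88 (ubl-1) to 0.02 (rps-29), with a median of −0.69, against a median of −0.44 and a range of −0.88 to −0.10 in the other 26. Both the second lowest and the highest value of the whole set thus belong to host genes. In the large subunit, 8 host genes had a median of −0.48 and 42 others one of −0.45. The small nucleolar RNAs themselves were not analysed here.

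rps-16 lies 109 bases downstream of fib-1 on the same strand of chromosome V, and fib-1 encodes fibrillarin, the methyltransferase that works in the same particle as NOL-56. fib-1 (15000651 to 15002223) was at 419.7, 426 and 419 CPM in the EV control and at 152, 141 and 137 CPM on nol-56 RNAi (log2 fold change −1.55, SE 0.04), while rps-16 stood at −0.22. The ratio of rps-16 to fib-1 counts was 0.996, 1.06 and 1.13 in the EV control and 2.78, 2.83 and 2.41 on nol-56 RNAi. The ratio was higher in 3 of 3 treated libraries than in every control, a 2.52-fold difference (exact permutation test, two-sided, p = 0.10, the smallest p that 3 against 3 allows, and 0.115 after adjustment over the 15 neighbour pairs compared). This pair was picked out after its values were seen.

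Large subunit genes moved by similar amounts but over a wider range. Of 51 large subunit genes 50 were tested. Of these, 44 fell and 3 rose (median −0.45, range −1.55 to 1.13), where 40.8% of all genes tested were called lower and 47.2% higher. The extremes were rpl-11.1 (−1.55) and rpl-7A (−1.20) at the low end and rpl-25.1 (1.04) and rpl-11.2 (1.13) at the high end. No small subunit gene reached such values, and the SD of log2 fold changes was 0.22 over the 32 small subunit genes and 0.45 over the large subunit genes. The interquartile ranges, which the extremes affect less, were closer at 0.27 and 0.34. The ratio of small to large subunit counts was 0.651, 0.654 and 0.655 in the EV control and 0.627, 0.624 and 0.622 on nol-56 RNAi. The groups do not overlap, and the difference is small next to the fall of either subunit.

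Abundant genes in general were also lower. Among the 777 genes tested whose mean log2 CPM was at or above that of rps-28, the lowest of the set, 69.4% were called lower and 25.7% higher. Their median log2 fold change was −0.45. The median of the small subunit genes is thus close to that of genes as abundant as they are. The interquartile range of the small subunit genes was 0.27, and that of the large subunit genes was similar at 0.34. It was 0.98 for these abundant genes, which include the 32 small subunit genes, and 1.60 for all genes tested. This group of abundant genes was chosen after the values were seen.

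Genes that build the small subunit had a lower median than the genes of its proteins, a difference that was not tested. Of 18 assembly factors of the small subunit, 18 fell (median −0.90), where 40.8% of all genes tested were called lower. Besides the target nol-56, these include fib-1 (−1.55), the nucleolar phosphoprotein gene dao-5 (from 443 ± 10.8 to 166 ± 6.46 CPM, −1.42) and nol-10 (from 158 ± 1.85 to 74.6 ± 0.739 CPM, −1.08). The assembly factor nearest to no change was byn-1 (−0.16), named after its values were seen, which was called higher with upper-quartile factors (0.09).

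Initiation factors that load the small subunit onto messenger RNA were lower as well. Where 40.8% of all genes tested were called lower and 47.2% higher, 21 of the 23 tested fell and 2 rose (median −0.85). Among the former were eif-3.C (from 473 ± 10.5 to 175 ± 1.53 CPM, −1.43), eif-3.I (−1.35) and eif-3.E (−1.31), which encode subunits of the scaffold that holds the small subunit during initiation, and inf-1 (from 698 ± 24.6 to 260.4 ± 4.80 CPM, −1.42), which encodes the helicase that unwinds messenger RNA. The cap-binding protein genes ife-5 (0.25) and ife-2 (0.12) were the 2 called higher and were picked out once their values were known. ife-2 did not pass the threshold without any of the 3 EV control libraries or without nol-56 RNAi library 1 (adjusted p = 0.0587 to 0.233, edgeR), and stood at 0.07 without the last of these.

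Among 12 regulators and partners of the subunit, 10 fell and 1 rose (median −0.66), where 40.8% of all genes tested were called lower and 47.2% higher. larp-1, whose counterpart in mammals binds messenger RNAs of ribosomal proteins and controls their translation and stability, went from 956 ± 41.2 to 366 ± 12.8 CPM (−1.39, SE 0.05, adjusted p = 2.26e-17, edgeR). That is a larger fall than that of any of the 32 small subunit genes. rpoa-2, for a core subunit of the polymerase that makes ribosomal RNA, fell (−1.25), as did znf-598, which senses collided ribosomes in other species (−0.91), and let-363, the TOR kinase (−0.79). The S6 kinase gene rsks-1, whose product acts on the protein of rps-6, went from 349.8 ± 7.07 to 253 ± 4.92 CPM (−0.47). rack-1, for a scaffold protein bound to the head of the subunit, was at 1493, 1595 and 1575 CPM in the EV control and at 1198, 1165 and 1055 CPM on nol-56 RNAi (−0.45), close to the median of the ribosomal proteins. aak-2, the kinase gene of the energy sensor AMPK, rose (0.29). ncl-1, a repressor of nucleolar size and ribosomal RNA synthesis in worms, did not pass the threshold (−0.08, adjusted p = 0.172, edgeR), and its sign turned with upper-quartile factors (0.17). It was called lower without EV control library 3 (−0.17, adjusted p = 0.000767, edgeR), with RLE factors (−0.22, adjusted p = 0.00168, edgeR) and with DESeq2 (−0.24, adjusted p = 0.000779), and stood at −0.02 without EV control library 1 (adjusted p = 0.723, edgeR). aak-2 and ncl-1 are named after their values were seen.

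**Figure D5:**
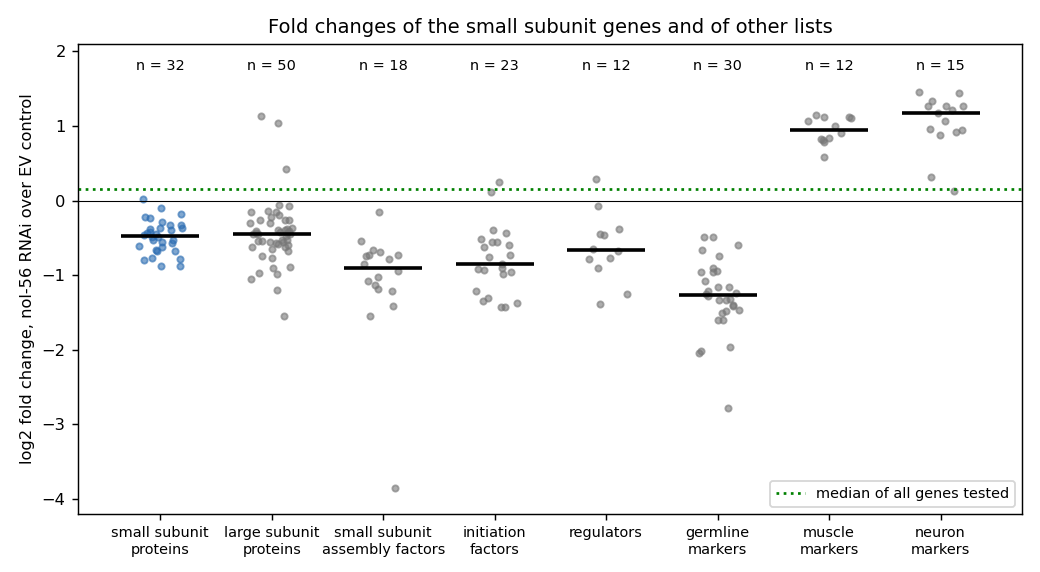
Log2 fold changes (nol-56 RNAi over EV control, y axis) of single genes as points and list medians as bars for the small subunit genes, the large subunit genes and 6 other lists, with the number of genes tested above each. The small subunit genes lie between −0.88 and 0.02, below the muscle and neuron markers. Their median (−0.47) is above the medians of the assembly factors (−0.90), initiation factors (−0.85) and germline markers (−1.26).

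Markers of tissues moved in the same libraries, where 40.8% of all genes tested were called lower and 47.2% higher. Of 30 germline markers, 30 fell (median −1.26), with car-1 (−2.78) and htp-3 (−2.05) leading, and their summed share of counts was 1.87% to 1.97% in EV control and 0.791% to 0.828% in nol-56 RNAi libraries. Among early embryo markers 10 of 15 could be tested, of which 9 fell and 1 rose (vet-2, −2.83, and vet-6, −3.62). All 15 summed to 0.0132% to 0.0152% of counts in EV control and 0.00428% to 0.00441% in nol-56 RNAi libraries. Of 15 neuron markers 14 rose (egl-3, 1.44, and egl-21, 1.46), of 12 muscle markers 12 rose (unc-27, 1.12, and mlc-3, 1.11), and of 16 intestine markers 15 rose and 1 fell (cpr-3, 1.41, and cpr-4, 1.15). The summed share of intestine markers, which include yolk protein genes, was 5.55% to 5.74% in EV control and 13.9% to 15.5% in nol-56 RNAi libraries. Of 12 epidermis markers 8 fell and 4 rose (noah-2, −1.66, and rol-6, 1.11). No marker was at 0 in every library. The part of a changed tissue make-up in the fall of the small subunit transcripts was not tested.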

How the data were processed

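RNA of 6 whole-worm pools was sequenced after polyA selection with a strand-marking kit, per the labels' protocols. The authors deposited whole-number read counts by gene and library, and for 18086 genes a normalized value, a signal equal to the deposited count divided by 1 size factor per library (0.832 to 1.23), which was used only to check these factors. The submitters' processing notes list, with no role or order, the build WBcel235 and the tools DESeq2 1.36.0, HTSeq 2.01, TopHat2 2.1.1 and cutadapt 2.10. The strand setting is not given in sources used here, so reads of overlapping genes may be shared.

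Groups came from titles and the treatment label, and replicate numbers from titles. Of 46934 rows, the 24518 without counts were left out. Counts were filtered with filterByExpr (14677 genes kept), scaled by TMM and tested by edgeR 4.0.16 quasi-likelihood fits (group only, R 4.3.3), with Benjamini-Hochberg adjustment over all genes tested and a threshold of 0.05. Each fold change divides nol-56 RNAi by EV control. The SE is the log2 fold change divided by the root of the F statistic. CPM use TMM-scaled library totals, and levels per kilobase the union of annotated exons (Ensembl 115). Correlations are across genes, with no p. No library repeats another, since pairs within a group gave chi-square values of 2.07 to 6.35 per degree of freedom. Alternatives were other scalings and filters, DESeq2 1.42.0, limma-voom (limma 3.58.1), the replicate block, and TMM factors computed without ribosomal protein genes, and leaving out each library or the 20 genes with most counts. Tests were checked on simulated counts in which few genes changed, as many up as down. Most genes were called in the data themselves, so the simulation does not check the scaling used here.

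The members and lists were chosen with earlier results of these data known. Names of 4 assembly factors and 4 initiation factors had no match and were left out. The rule for named genes gave full values to the 5 lowest and 5 highest members by fold change, the 3 highest and 3 lowest per kilobase, members not past the threshold and ubl-1, and named up to 4 genes of smallest p per pathway list, 2 per marker list, and rack-1, rsks-1, larp-1 and fib-1. The planned count of promoter motifs was not run, because no promoter sequences were used here.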

Additional observations from a re-analysis of the deposited data

How the results depend on the processing

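Over 16 alternatives, 24 of the 32 small subunit genes kept their direction and their call in each. Between 24 and 32 fell, and leaving out single libraries gave 30 to 31. Over all genes tested, 4825 fell with upper-quartile factors, 6467 with RLE factors and 5933 to 6056 leaving out single libraries. With upper-quartile factors 2 rose (rps-21 and rps-29), where 8002 of all 14677 genes tested rose. With genes above 5 CPM 1 rose (rps-29). The median of the 32 was −0.61 with RLE factors, −0.23 with upper-quartile factors, −0.38 with library totals, −0.33 with genes above 5 CPM and −0.63 with DESeq2, and −0.52 to −0.44 leaving out single libraries. That of the large subunit genes was −0.59, −0.20, −0.36, −0.30 and −0.61 in the same 5 settings, and 7 large subunit genes rose with upper-quartile factors. Falls of at least 1.5-fold, a count added after the data were seen, numbered 18, 2, 6, 5 and 19 in these settings and 8 to 12 leaving out single libraries. The shares of counts without the top 20 genes were 2.85% and 2.36%. With genes above 5 CPM, 9931 genes were tested in all, of which 4508 rose and 4566 fell, and their median was −0.01. The share of calls that were higher was 53.6% with TMM, 49.6% with RLE and 62.4% with upper-quartile factors and 46.8% with DESeq2.

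Signs turned for rps-27 (0.0703), rps-28 (0.0125), rps-16 (0.0307), rps-21 (0.151), byn-1 (0.0923) and ncl-1 (0.169) with upper-quartile factors, for rps-21 (0.0502) and ncl-1 (0.0688) with genes above 5 CPM, and for ncl-1 (0.0155) with library totals. They also turned for rps-29 with RLE factors (−0.12), with DESeq2 (−0.14) and without library 1 of either group (its range leaving out single libraries was −0.0366 to 0.079), and for ife-2 with RLE factors (−0.0159) and DESeq2 (−0.0363). In the initiation list 0 genes rose with RLE factors and DESeq2, 1 with the replicate block and 1 to 2 leaving out single libraries. With upper-quartile factors 1 assembly factor and 2 regulators rose. The cause of these differences beyond the shift in scaling was not tested.

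Libraries with the same number did not deviate together (correlations −0.04, −0.01 and 0.00). These values cannot tell whether pools with the same number were grown or prepared together. With the replicate block 30 small subunit genes fell and 0 rose, 5964 genes fell and 6893 rose in all. With at least 4207 counts for each small subunit gene, the number of libraries limits precision more than depth.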

Other observations

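Protein-coding genes lie within 500 bases of 16 small subunit genes on the same strand without overlap, 4 of them upstream and 12 downstream. The distance was chosen after the data were seen. Genes that overlap a small subunit gene, such as Y43B11AR.3 with rps-4, were not counted. Of the 15 neighbours tested, 12 fell and 3 rose, where 40.8% of all genes tested were called lower and 47.2% higher, and 10 had a lower log2 fold change than the small subunit gene beside them. The neighbours that rose were C49H3.12 beside rps-2 (1.23 against −0.78), F53A3.7 beside rps-22 (0.25 against −0.68) and T07A9.14 beside rps-24 (0.36 against −0.66). C49H3.12 has few reads, with 1 count for 272 to 1371 counts of rps-2 in a library. Y41D4B.4 beside rps-28 (−1.08 against −0.23), trpp-11 beside rps-29 (−0.47 against 0.02) and pigk-1 beside rps-5 (−1.09 against −0.39) fell further than the ribosomal protein gene. Whether these genes share a transcript was not tested.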
